A study of Mus musculus with 6 samples.

Results

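The genes described are 8 mouse genes of fatty acid and cholesterol synthesis: Acaca, Acacb, Fasn, Scd1, Scd2, Srebf1, Srebf2 and Hmgcs1, out of 21757 protein-coding genes. Their open chromatin in the kidney was taken as every distinct ATAC-seq interval that overlapped the stretch from 3 kb upstream of the gene start to the gene end, read along the strand of the gene in GENCODE M39 (build GRCm39). This gave 85 intervals of 279569 in the whole list. The rule uses gene names and positions and no measured value.

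ATAC-seq cuts accessible DNA with the Tn5 transposase, so that reads pile up where nucleosomes leave the DNA open. Nuclei came from cortical kidney tissue of mice whose treatment the labels give as Control, with 3 libraries labelled WT and 3 labelled Acly cKO. Acly cKO mice carry floxed Acly alleles and Ksp-Cre (Cdh16-Cre), which by the methods recombines in proximal tubule, distal tubule and collecting duct cells. The authors describe the deletion as selective for tubular epithelium. They report no measurement of Acly in the vessels, stroma or immune cells of these knockout mice. The methods name Acly fl/fl littermates without Cre as the controls of this cross. The labels of the libraries give only WT, so whether the WT libraries carried floxed alleles is not given. The age of the ATAC-seq mice was not given separately. By the labels, the WT libraries came from batches 1 and 2 and the Acly cKO libraries from batches 4 and 5, so genotype and batch cannot be told apart. The authors deposited a single peak call which, by its peak names, was made on all libraries pooled. No value belongs to a library or a genotype. WT and Acly cKO kidneys were therefore not compared, no value below has a replicate error, and no test was run.

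Each summit in the list has a fold enrichment, the pile-up of reads over the background of the call. That background was the same at every summit, 14.3 reads, and the fold enrichment equalled the pile-up plus 1 over the background plus 1. It therefore came in steps of 0.0655, and the number of extended reads behind each summit could be recovered. The lowest pile-up in the list was 25 reads, a fold enrichment of 1.7. Pile-ups are given below with exact Poisson 95% intervals, which cover counting error only and neither animals nor libraries. The sign of the read shift used in the call is not clear in the methods, and summits can fall elsewhere with the other sign, so distances from a summit and windows about it hold for the summits as deposited. Where an interval had several summits, its value is that of the highest, and a start is called open where a summit lay within 1 kb of it and nearer to it than to the other starts of the gene. Starts within 500 bp of each other were merged and distances were taken to the nearest transcript start of the merged span.

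As background, cytosolic acetyl-CoA is made from citrate by ATP citrate lyase, the product of Acly, and feeds the fatty acid and the sterol route. Acetyl-CoA carboxylases turn it into malonyl-CoA, fatty acid synthase builds palmitate, and stearoyl-CoA desaturases add a double bond. In the sterol route, HMG-CoA synthase condenses it with acetoacetyl-CoA on the way to cholesterol. Genes of both routes are under SREBP transcription factors, which are held in the endoplasmic reticulum membrane and are cut and sent to the nucleus when sterols are low. SREBPs bind DNA together with NF-Y, which reads the CCAAT box, and with Sp1, which reads the GC box. In the kidney these routes supply membrane lipid to tubule cells, which otherwise burn fatty acids for energy.

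The most accessible starts of 6 genes, with the upstream start of Srebf1, are shown next, because the results turn on where these starts lie and what letters they hold. Every sequence is the GRCm39 reference in the 200 bp about the highest summit, cut back where it reached an exon, written 5′ to 3′ on the strand of the gene. Capitals mark matches on either strand to the SREBP element TCACNCCAC, the inverted CCAAT box ATTGG or the GC box GGGCGG, whose reverse complements read CCAAT and CCGCCC for the shorter pair. Each start is called by a GENCODE transcript that begins there. No sequence is shown for Acacb, or for Scd2, whose highest summit lay inside its exon 1.
Acaca-203, chr11:84070320-84070519, plus strand: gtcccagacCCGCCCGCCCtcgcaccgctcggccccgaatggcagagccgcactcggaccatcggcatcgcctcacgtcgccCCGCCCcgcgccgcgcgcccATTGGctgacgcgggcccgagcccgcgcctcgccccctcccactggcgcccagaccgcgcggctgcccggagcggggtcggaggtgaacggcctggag
Fasn-201, chr11:120715403-120715539, minus strand: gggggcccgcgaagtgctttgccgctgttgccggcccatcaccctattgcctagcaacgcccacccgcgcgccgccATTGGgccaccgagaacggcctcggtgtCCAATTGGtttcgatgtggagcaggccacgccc
Scd1-201, chr19:44396341-44396415, minus strand: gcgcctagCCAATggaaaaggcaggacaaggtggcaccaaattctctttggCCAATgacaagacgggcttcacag
Srebf1-207, chr11:60101292-60101448, minus strand: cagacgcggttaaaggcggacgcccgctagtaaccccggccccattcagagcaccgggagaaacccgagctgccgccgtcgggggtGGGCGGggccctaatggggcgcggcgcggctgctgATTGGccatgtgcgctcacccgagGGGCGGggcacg
Srebf1-201, chr11:60111469-60111548, minus strand: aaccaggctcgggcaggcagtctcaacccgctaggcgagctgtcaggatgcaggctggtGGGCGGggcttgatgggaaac
Srebf2-201, chr15:82031198-82031381, plus strand: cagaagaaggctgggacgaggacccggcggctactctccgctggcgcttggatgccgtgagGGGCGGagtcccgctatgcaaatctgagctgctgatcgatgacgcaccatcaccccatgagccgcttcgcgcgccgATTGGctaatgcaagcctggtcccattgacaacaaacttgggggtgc
Hmgcs1-203, chr13:120151621-120151820, plus strand: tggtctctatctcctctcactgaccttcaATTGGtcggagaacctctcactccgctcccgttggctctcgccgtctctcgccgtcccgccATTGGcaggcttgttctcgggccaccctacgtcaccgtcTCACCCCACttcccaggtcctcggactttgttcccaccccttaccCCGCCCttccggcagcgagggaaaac

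Hmgcs1 held the most accessible start among the 8 genes and Scd1 the least. At the highest coding start of each gene, the order of the fold enrichments was Hmgcs1 118, Acaca 64.2, Srebf2 42.6, Acacb 36.0, Srebf1 33.5, Fasn 31.6, Scd2 21.7 and Scd1 11.2. Of the neighbours in this order, 5 pairs were set apart by more than counting error. The pile-up ratio was 1.84 (95% interval 1.7 to 1.99) for Hmgcs1 over Acaca, 1.51 (1.36 to 1.67) for Acaca over Srebf2 and 1.18 (1.06 to 1.33) for Srebf2 over Acacb. It was 1.46 (1.26 to 1.68) for Fasn over Scd2 and 1.95 (1.61 to 2.36) for Scd2 over Scd1. The other pairs, Acacb over Srebf1 (1.07, 0.951 to 1.21) and Srebf1 over Fasn (1.06, 0.934 to 1.2), did not differ beyond counting error, while Acacb over Fasn (1.14, 1.01 to 1.29) stood just past it. A summit lay within 1 kb of the gene start, the 5′ end of the gene in the annotation, at 7 of the 8 genes, against 73.8% of all protein-coding genes. At 7 of 8 this summit reached a fold enrichment of at least 5, against 61.5% of all genes, and at 4 of 8 (Fasn, Scd2, Srebf2 and Hmgcs1) at least 20, against 44.0%. Counted over all coding starts of a gene, 8 of 8 reached 5, against 66.2%, and 7 of 8 reached 20, against 48.8%, the exception being Scd1. The median at the gene start was 20.3 for the 8 genes and 13.8 for all genes. In medians of fold enrichment over genes, here and below, a gene without a summit counts as 0.

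**Figure D1:**
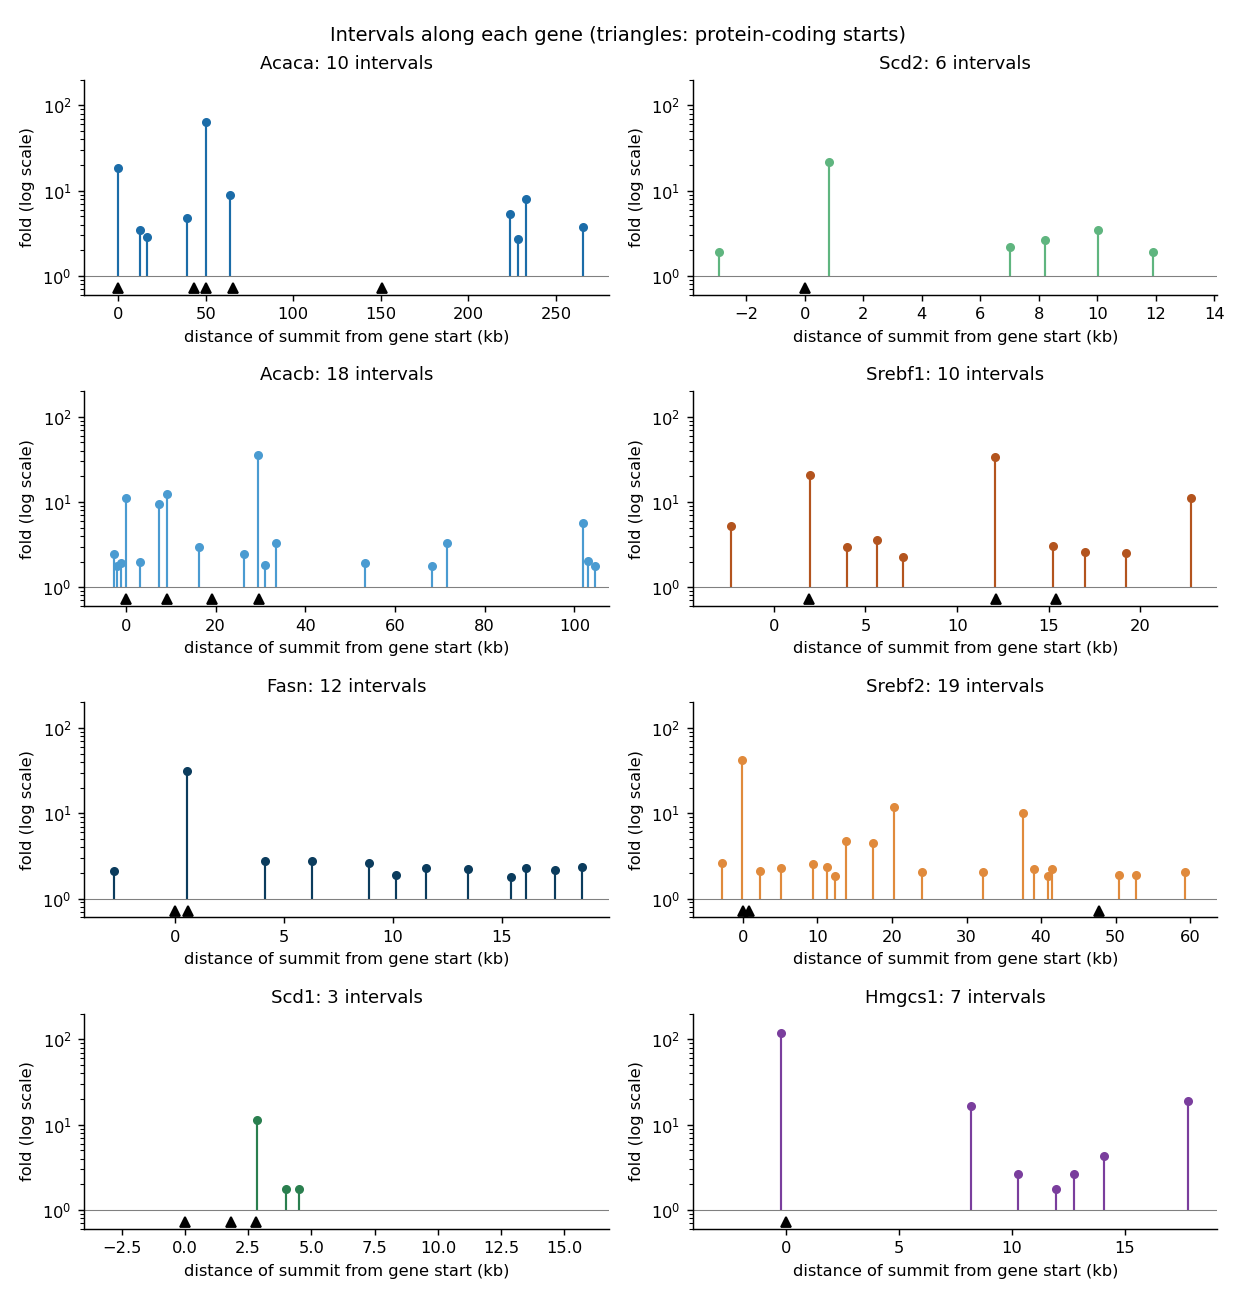
Each dot is an ATAC-seq interval at its highest summit, with the distance from the gene start in kb on the horizontal axis and the fold enrichment on a log scale on the vertical axis, 1 panel per gene and its own distance scale in each. Black triangles are protein-coding starts. The highest dot stands at or beside a triangle in all 8 panels. In Acaca, Acacb, Fasn, Scd1 and Srebf1 that triangle is not at 0 kb, although in Fasn it is only 0.593 kb away.

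Of the 85 intervals, 51 (60.0%) had a fold enrichment under 3, 11 (12.9%) of 3 to under 5, 15 (17.6%) of 5 to under 20 and 8 (9.41%) of 20 or more. Over all intervals of the list these shares were 59.0%, 16.5%, 18.9% and 5.59%. The median fold enrichment was 2.62 at the 8 genes and 2.55 in the list, and the median width was 545 bp and 434 bp. All 8 intervals of 20 or more peaked within 1 kb of a coding start of their gene, as did 4 of the 15 between 5 and 20. The matching shares over all intervals are not given, so these counts do not show a trait particular to these genes. The remaining 11 intervals with a fold enrichment of at least 5 lay in introns, in a coding exon, at the 3′ ends or upstream. How much of each gene was covered differed widely. Intervals took up 88.1% of the Srebf1 region, 87.0% of Hmgcs1, 66.8% of Fasn, 50.2% of Scd2, 26.8% of Srebf2, 17.1% of Acacb, 10.8% of Scd1 and 2.41% of Acaca. The median over all protein-coding genes was 16.7%, with quartiles of 3.65% and 43.7%.

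Acaca encodes acetyl-CoA carboxylase 1, the cytosolic enzyme that makes malonyl-CoA for fatty acid synthesis. Acaca (ENSMUSG00000020532.20, chr11:84020476-84292477, plus strand) spans 272 kb and held 10 intervals. Its 5 coding starts were unequal. At the gene start, Acaca-211, the summit 25 bp upstream had a fold enrichment of 18.3 (279 reads, 247 to 314). The interval there also overlaps Tada2a, a gene that starts within 1 kb of this summit, so the reads cannot be given to either gene alone. The strongest opening stood 50.2 kb further in, at Acaca-203, where the summit 237 bp upstream reached 64.2 (979 reads, 919 to 1042), higher than 99.4% of all intervals. Its pile-up was 3.51 times that at the gene start (3.07 to 4.02). In the transcript that GENCODE names canonical, this place is intron 1. The canonical start itself, Acaca-202, 43.5 kb from the gene start, had no summit within 1 kb, and the nearest interval was 3947 bp away with a fold enrichment of 4.71. Acaca-201 and Acaca-208 had none either. Away from the starts, 3 further intervals passed 5: 8.97 in intron 2 (chr11:84084161-84084453), 5.37 in intron 45 (chr11:84244063-84244538) and 7.99 in intron 45 (chr11:84252899-84253995).

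Acacb encodes acetyl-CoA carboxylase 2, which sits at the mitochondrial outer membrane, where malonyl-CoA restrains fatty acid uptake for oxidation. Acacb (ENSMUSG00000042010.18, chr5:114284307-114388822, plus strand) held 18 intervals, 11 of them under 3. As at Acaca, its highest summit lay inside the gene and exceeded that at the gene start. Acacb-202 at the gene start had 11.0 (167 reads, 143 to 194), and Acacb-209, 9.18 kb in, had 12.5 (190 reads, 164 to 219), with overlapping counting intervals. Acacb-205, 29.7 kb in and in intron 2 of the canonical transcript, had 36.0 (549 reads, 504 to 597), which is 3.29 times the gene start (2.76 to 3.93) and higher than 97.5% of all intervals. Acacb-201, between these, had no summit within 1 kb. Outside the starts, an interval in intron 1 reached 9.49 (chr5:114288628-114291923) and another at coding exon 50 reached 5.7 (chr5:114385880-114387102). Between the carboxylases, the highest pile-up of Acaca was 1.78 times that of Acacb (1.6 to 1.98).

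Fasn encodes fatty acid synthase, the multifunctional enzyme that assembles palmitate. Fasn (ENSMUSG00000025153.11, chr11:120696672-120715995, minus strand) held 12 intervals, of which only the interval at the start passed 3. That interval, chr11:120712834-120717889, was 5056 bp wide with 14 summits. Its highest, 38 bp upstream of the canonical start Fasn-201, had a fold enrichment of 31.6 (482 reads, 440 to 527), and another 414 bp inside the gene had 30.6 (466 reads). The annotated gene start, Fasn-209, lies 0.593 kb upstream of Fasn-201 and had 7.73 (117 reads, 96.8 to 140), so that the canonical start was 4.12 times as high (3.36 to 5.09). The other 11 intervals lay between 1.77 and 2.75. They cover much of the gene body at a level close to the lowest in the list. The start interval also overlaps Ccdc57, and Dus1l starts within 1 kb of the summit nearest the gene end. The highest pile-up of Acaca was 2.03 times that of Fasn (1.82 to 2.27).

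**Figure D2:**
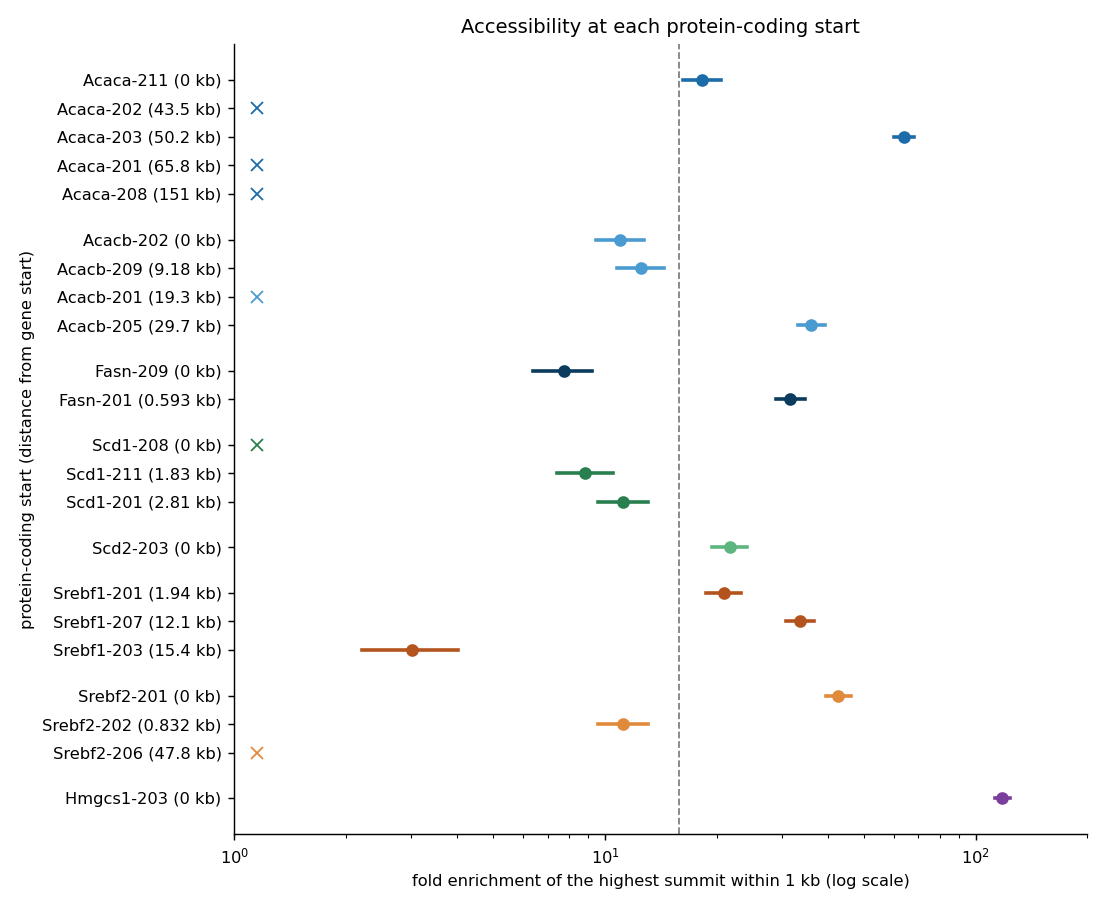
Fold enrichment of the highest summit within 1 kb of each of the 22 protein-coding starts (log scale), with the distance of the start from the gene start in brackets. Bars are exact Poisson 95% intervals of the pile-up, crosses are starts without a summit, and the dashed line is the median of all open coding starts, 15.8; Hmgcs1-203 (118) and Acaca-203 (64.2) lie furthest to its right.

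Scd1 and Scd2 encode stearoyl-CoA desaturases, which turn saturated into monounsaturated fatty acids, and lie near each other on chromosome 19. Scd1 (ENSMUSG00000037071.5, chr19:44382894-44399154, minus strand) held 3 intervals, the fewest of the 8 genes. Its annotated gene start, Scd1-208, had no summit within 1 kb. The canonical start Scd1-201, 2.81 kb downstream, had 11.2 (170 reads, 145 to 198) at a summit 24 bp inside exon 1, and Scd1-211, 1.83 kb downstream, had 8.84 (134 reads, 112 to 159). The summit of Scd1-211 lay 403 bp from the nearer of the 2 merged transcript starts there and 505 bp from the outermost, while Scd1-201 was 482 bp away, so measured to outermost starts it would belong to Scd1-201 and Scd1 would have 1 open start. The ratio of this pair was 1.27 (1.01 to 1.6), so they stood barely apart on counting error. Both summits belong to a single interval, chr19:44395692-44397374, with the remaining summit of 9.43 located 355 bp inside the gene. The other 2 intervals, in intron 2 and coding exon 2, were at 1.77, and the lncRNA Gm59215 starts within 1 kb of both. Over all protein-coding genes, 12549 had a higher fold enrichment at a coding start than Scd1.

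Scd2 (ENSMUSG00000025203.8, chr19:44281613-44295303, plus strand) held 6 intervals, and its highest summit lay inside the gene. The start interval, chr19:44280757-44286778, was 6022 bp wide with 16 summits. The highest lay in exon 1 (21.7, 331 reads, 296 to 369), 822 bp downstream of the gene start. The only coding start merges 12 transcripts, and this summit lay 322 bp from the nearest transcript start of that span. How far it stood from a start therefore depends on the transcript. Within 500 bp of the gene start the highest summit was at 4.58. Further summits of 5 or more followed further into the gene: 7.07 at 1341 bp, 11.2 at 1670 bp, 6.74 at 2035 bp, 10.6 at 2287 bp and 11.9 at 2756 bp. The remaining 5 intervals had fold enrichments from 1.9 to 3.47, and Mir5114 starts within 1 kb of the highest of these.

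Srebf1 encodes SREBP-1, the SREBP best known for driving fatty acid genes. It is known to be made in forms 1a and 1c from separate starts, with the 1a start upstream and the 1c start in the intron behind it. Srebf1 (ENSMUSG00000020538.17, chr11:60089913-60113407, minus strand) held 10 intervals with 74 summits, and the 3 coding starts were all open. Srebf1-201, in the position of the 1a start, had 20.9 (318 reads, 284 to 355) at a summit 19 bp downstream. Srebf1-207, in the position of the 1c start, had 33.5 (511 reads, 468 to 557) at 58 bp upstream, which is 1.61 times as many reads (1.39 to 1.85). The lncRNA Gm73277 starts within 1 kb of this summit. The last start, Srebf1-203, had 3.01 (45 reads, 32.8 to 60.2), and the pile-up of Srebf1-207 was 11.4 times as high (8.36 to 15.8). The annotated gene start, 1.94 kb upstream of Srebf1-201, had 18.9 (288 reads, 256 to 323) and shared its interval. At the other end of the gene, an interval over the last exon, exon 19, reached 11.1 (chr11:60090054-60092764), and Mir6921 starts within 1 kb of its summit. An upstream interval, chr11:60115107-60117381, reached 5.24.

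Srebf2 encodes SREBP-2, the SREBP best known for driving cholesterol genes, and carries the microRNA Mir33 in an intron. Srebf2 (ENSMUSG00000022463.10, chr15:82031382-82093201, plus strand) held 19 intervals, the most of the 8 genes, with 14 under 3. The summit 84 bp upstream of Srebf2-201, the gene start and canonical start, had 42.6 (650 reads, 601 to 702), and Srebf2-202, 0.832 kb in, had 11.2 (170 reads, 145 to 198), for a ratio of 3.82 (3.22 to 4.55). Srebf2-206, 47.8 kb in, had no summit within 1 kb. The highest pile-up of Srebf2 was 1.27 times the highest of Srebf1 (1.13 to 1.43). Inside the gene, an interval in intron 1 reached 11.9 over 14 summits (chr15:82049406-82053077), and another in intron 10 reached 10.1 (chr15:82067723-82069929). Mir33 (chr15:82082323-82082391) was not inside an interval. The nearest ended 387 bp away and had a fold enrichment of 1.9. The start interval of Srebf2 overlaps Ccdc134, and the lncRNA Gm56711 starts within 1 kb of its summit. Gm49502 starts within 1 kb of the intron 10 summit, and the last interval, at 2.03, overlaps Shisa8.

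Hmgcs1 encodes cytosolic HMG-CoA synthase, an early enzyme of the sterol route. Hmgcs1 (ENSMUSG00000093930.4, chr13:120151915-120170470, plus strand) has a single coding start, which held a summit 194 bp upstream with a fold enrichment of 118 (1799 reads, 1717 to 1884). Only 21 intervals of the 279569 were higher, and 8 protein-coding genes had a higher fold enrichment at the gene start. The lncRNA Gm60502 starts within 1 kb of this summit, so, as at Acaca, the reads cannot be given to either gene alone. This interval, chr13:120149464-120154374, was 4911 bp wide, with weaker summits of 16.6 at 664 bp and 22.8 at 1059 bp downstream. Of the 7 intervals of Hmgcs1, 2 others passed 5. The interval in intron 1, chr13:120154578-120161844, reached 16.4 and was 7267 bp wide. The interval over the 3′ end, chr13:120166717-120173403, reached 18.9 in exon 10, the last exon, and extends into Nim1k. The lncRNA Gm48342 starts within 1 kb of a summit of 4.26 in coding exon 7.

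**Figure D3:**
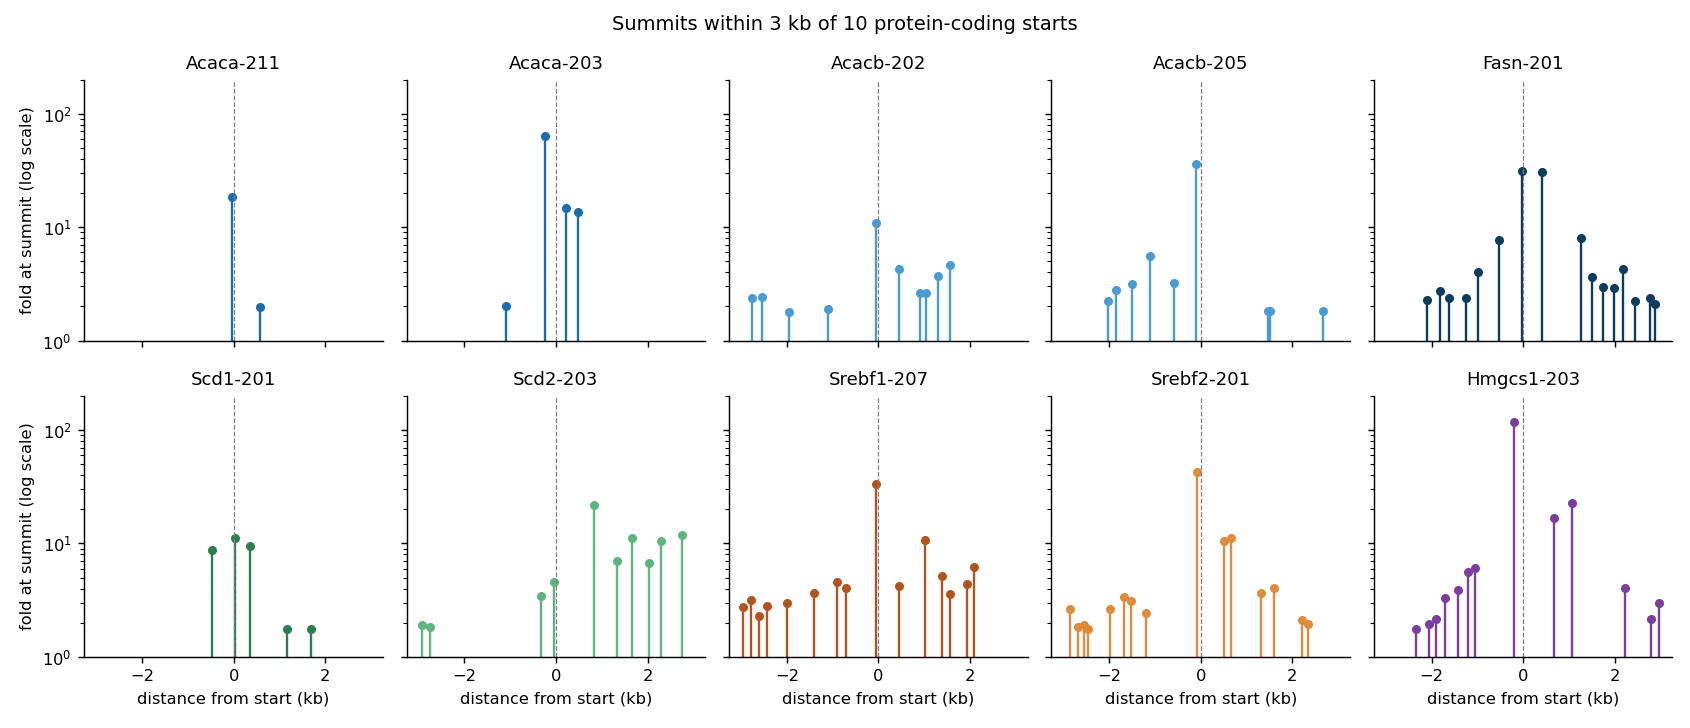
Fold enrichment of every summit within 3 kb of 10 coding starts (log scale) against the distance from the start in kb, read along the gene, with the start as a dashed line. The panels are the most accessible start of each gene and the gene starts of Acaca and Acacb, and the other open starts are not drawn. The highest summit lies within 250 bp of the start in 9 panels, whereas in the panel of Scd2 it lies 822 bp downstream. That summit of Scd2 is 322 bp from the nearest transcript start merged there.

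In 4 of the 8 genes (Acaca, Acacb, Scd1 and Srebf1) the strongest interval peaked over 1 kb from the gene start and within 1 kb of another coding start, which held for 7.99% of all protein-coding genes. Measured from the canonical start instead, 3 of 8 did so (Acaca, Acacb and Srebf1), against 4.41%. More than 1 coding start was annotated at 6 of the 8 genes (all but Scd2 and Hmgcs1), against 43.1% of all protein-coding genes, which gave 22 coding starts. Of the 22 starts, 16 were open, 15 reached a fold enrichment of 5 and 8 reached 20. Over the 38120 coding starts of all genes, 69.2% were open, 49.8% reached 5 and 30.8% reached 20. The same 6 genes had more than 1 open coding start, against 26.2% of all genes. Genes with 1 coding start cannot meet this, so the contrast depends on how many starts are annotated. Of the 9387 genes with more than 1 coding start, 5693 had more than 1 open. The shares for the strongest interval were not split by the number of starts. Measured to outermost transcript starts, an alternative added after the data were seen, 15 starts were open, 14 reached 5 and 5 genes (without Scd1) had more than 1 open start, against 26.2% again, and 8 of the 15 held the inverted CCAAT box, a motif taken up with the sequences.

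The wider pathway was represented by 44 other genes: 17 of the fatty acid side, 22 of the cholesterol side and 5 that control SREBP. At the gene start 42 were open, 37 reached 5 and 32 reached 20, against 73.8%, 61.5% and 44.0% of all protein-coding genes. The median there was 39.1. Over all coding starts, 44 of 44 reached 5 and 41 reached 20, against 66.2% and 48.8% of all genes. Their median was 47.6, beside 18.9 for all protein-coding genes and 34.8 for the 8 genes. The medians were 33.8 on the fatty acid side, 58.5 on the cholesterol side and 44.3 for the control genes. Hmgcs1 stood above the highest gene of the list, Msmo1 (108), a sterol demethylating oxidase, which was followed at the gene start by Ggps1 (98.1), which makes geranylgeranyl diphosphate, and Hsd17b7 (81.0), a sterol reductase. Scd1 stood below the lowest of the 44 (Thrsp, 14.4), which was named after its value was seen. At the annotated gene start the lowest were Fdft1 (1.77), which makes squalene, Pmvk (2.1), and Acly and Acss2 (both 2.42), which make acetyl-CoA from citrate and acetate. Insig2, which retains SREBP in the endoplasmic reticulum, had no summit there. These low values did not extend to the other coding starts, where Acly reached 50.2 and Insig2 69.4.

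**Figure D4:**
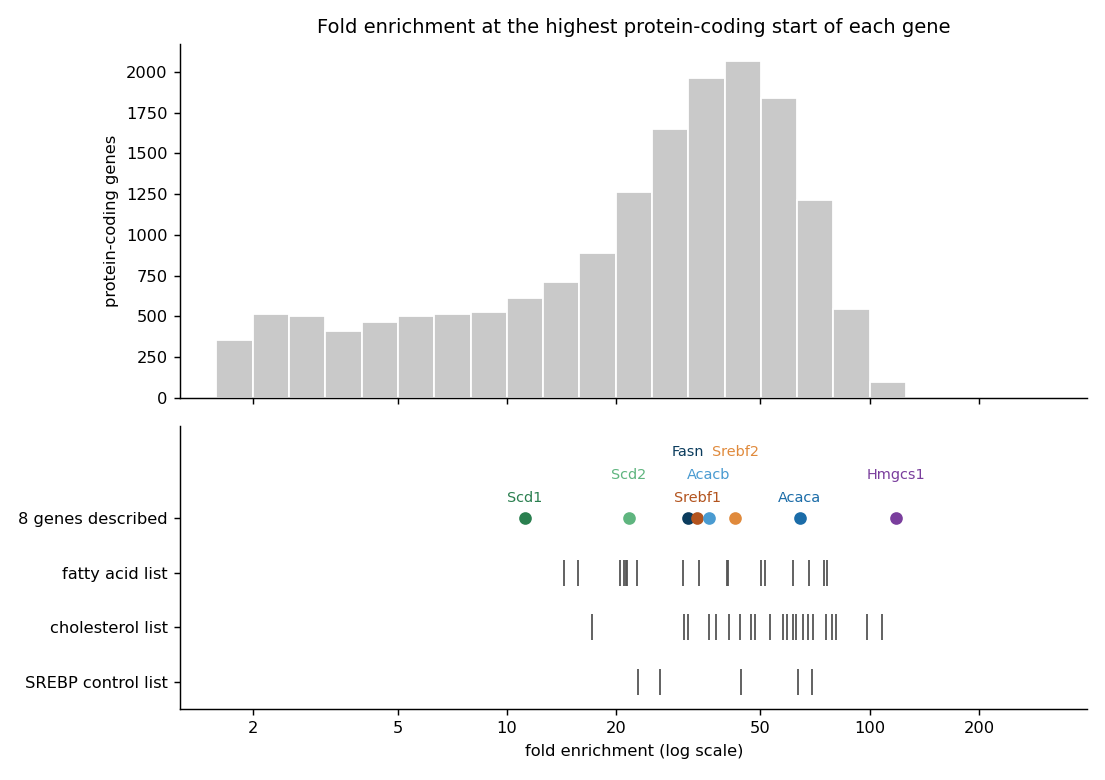
The upper panel is a histogram of the fold enrichment at the highest open coding start of each protein-coding gene (log scale). In the lower panel the 8 genes are dots and the genes of the 3 pathway lists are ticks on the same axis; the 8 genes run from 11.2 (Scd1) to 118 (Hmgcs1), past both ends of the pathway lists.

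The letters under the summits were searched in 200 bp about the highest summit at each open coding start, on both strands. These matches describe the reference sequence and do not show that a factor was bound. The SREBP element TCACNCCAC was found at 1 of the 16 open starts, that of Hmgcs1, against 0.796% of the 26367 open coding starts of all genes. It lay 161 bp upstream of the start and 33 bp from the summit, and a pair of inverted CCAAT boxes stood 202 and 263 bp upstream. The most accessible starts of the pathway list held it at 1 of 17 genes of the fatty acid side. None of the 22 genes of the cholesterol side and none of the 5 control genes had it, against 0.655% of genes with an open coding start. With 1 mismatch allowed, an alternative added after the data were seen, 4 of the 16 starts held the element (Acacb-209, Acacb-205, Srebf2-201 and Hmgcs1-203), against 17.9% of all open starts. The match of Srebf2-201 lay 70 bp upstream of the start. The E-box CACGTG, which USF, MYC and ChREBP can read, was found at Acaca-211, 13 bp upstream, and at no other of the 16 starts, against 5.96% of all. The LXR element, a direct repeat of AGGTCA with a spacer of 4 bases and up to 2 mismatches in its 12 fixed letters, was found at 0 of the 16 starts, against 1.88%.

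The inverted CCAAT box ATTGG was the motif most widely shared by the 8 genes. It lay at 9 of the 16 open starts, against 26.9% of all open starts. In windows placed on the start itself, from 250 bp upstream to 50 bp downstream, it lay at 7 of the 16, against 36.0% of all open starts. Taking only the most accessible start of each gene, 7 of the 8 genes held it (all but Acacb), against 30.3% of the 16641 genes with an open coding start and 35.8% of those whose highest start reached 20. In the pathway list it was held by 20 of 22 genes of the cholesterol side, 10 of 17 of the fatty acid side and 1 of 5 of the control genes. Its place was close to the start at Fasn-201 (28, 31 and 59 bp upstream, the nearer pair overlapping on opposite strands), Srebf1-207 (34 bp upstream), Srebf2-201 (45 bp upstream) and Scd1-201 (22 and 65 bp upstream). At Acaca-203 it lay 4 bp from the summit and 233 bp upstream of the start. At Scd2-203 a match lay 2 bp from the summit and 824 bp inside the gene. The Srebf1 starts differed in this motif: Srebf1-207 held it and Srebf1-201 did not. The same was true of Acacb, where Acacb-202 held it 4 bp downstream of the start and Acacb-205 did not.

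The GC box GGGCGG was found at 9 of the 16 open starts, against 43.5% of all open starts. At the most accessible start, 6 of the 8 genes held it (all but Fasn and Scd1), against 57.5% of all genes and 68.4% of those whose highest start reached 20. Acaca-203 had 3 matches, and Srebf1-201 also had 3 although it held no CCAAT box. Base composition ranged widely over the 16 windows. The G and C content went from 52.5% at Acacb-202 and Fasn-209 to 80.0% at Acaca-211, with a median of 63.0%, beside 61.0% for all open starts. Observed over expected CpG went from 0.0575 at Acacb-209 to 1.2 at Acaca-211, with a median of 0.681 beside 0.617.

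**Figure D5:**
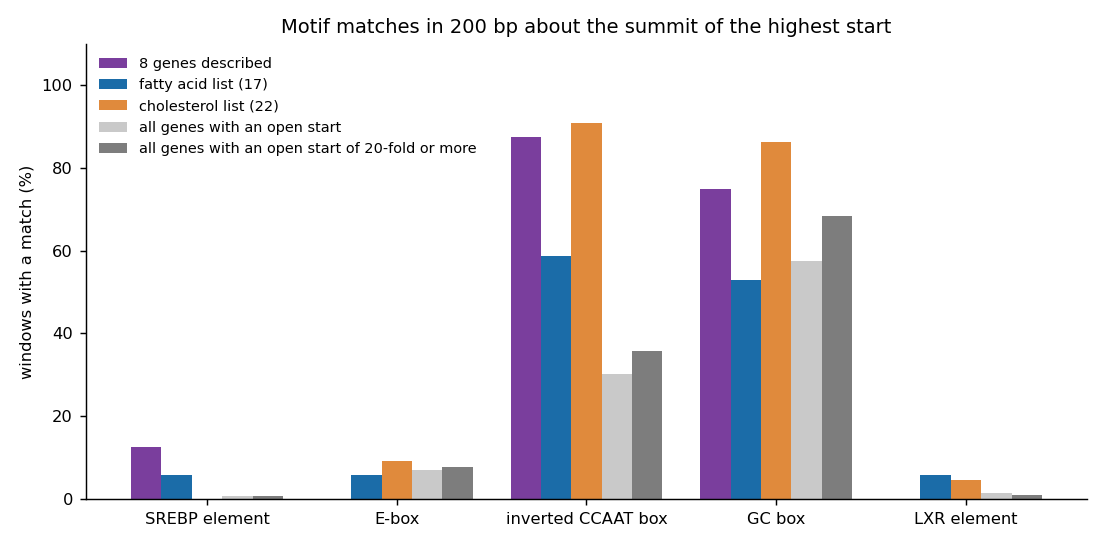
Share of genes (percent) whose most accessible coding start held each motif within 200 bp about its summit, for the 8 genes, the 17 genes of the fatty acid list, the 22 of the cholesterol list, all genes with an open coding start and all genes whose highest start reached 20. For the inverted CCAAT box the bars stand for 7 of 8, 10 of 17, 20 of 22, 30.3% and 35.8%, and the E-box and the LXR element have no bar for the 8 genes.

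The tissue was checked against marker genes, since fat and adrenal cells, which use these routes heavily, lie beside the kidney. A fold enrichment of at least 5 at the gene start was found for 5 of 5 proximal tubule markers (5.3 to 33.1), 2 of 3 of the thick limb and distal tubule, 2 of 3 of the collecting duct and 3 of 3 of the stroma. Of other cell types, 0 of 2 podocyte, 1 of 3 endothelial, 0 of 3 immune, 2 of 3 liver and 1 of 3 muscle and pancreas markers did so. In all, 17 of the 36 markers passed, against 61.5% of all protein-coding genes. The median of the proximal tubule markers was 7.4, below the 13.8 of all genes. Passing 5 at the gene start therefore does not by itself mark a cell type. Of 5 fat markers, Cidec reached 10.5 at the gene start, Plin1, Lep and Ucp1 lay there between 2.03 and 2.62, and Plin1 reached 7.2 at another coding start, so that 2 of 5 passed 5 over all coding starts. Adipoq, a defining gene of white fat, had no summit at any coding start. All 3 adrenal cortex markers lacked a summit at the gene start, and Cyp11a1 had 2.75 at another coding start. Intervals did lie elsewhere in most of these gene regions. The strongest reached 36.1 at Plin1, 10.5 at Cidec, 9.82 at Adipoq, 7.92 at Lep and 2.62 at Ucp1. For the adrenal genes it was 9.03 at Hsd3b1 and 3.73 at Cyp11a1, while Cyp11b1 had no interval. In a pooled list of whole tissue, an opening in few cells and a weak opening in many cells cannot be told apart, and the share of each cell type in the values of the 8 genes was not tested.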

How the data were processed

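Nuclei of mouse kidney cortex were profiled by ATAC-seq in 3 WT and 3 Acly cKO libraries. By their methods, the authors used fastp for trimming and Bowtie2 2.3.4.3 for alignment to mm39, discarded duplicates and reads without a unique position, and ran MACS3 3.0.0 (extension 200 bp, shift 100 bp with its sign unclear, q of 0.05, summits called). Peaks on blacklisted regions or outside the standard chromosomes were then dropped with BEDTools 2.29.1. A further 2 WT libraries named in the methods are not analysed here, and whether they entered the pooled call is not given in the sources used here.

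The deposited list gives a fold enrichment, a linear ratio by the authors' caller, the −log10 p and −log10 q of each summit, a score made by the authors' caller as 10 times the −log10 q, and the summit position. The deposited summit list before filtering held 874 further summits, 0 of them at the 8 genes. The depth of single libraries is unknown from these values. Deeper pooling lowers the weakest fold enrichment that is called, and a constant background leaves local differences in mappability uncorrected.

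Intervals and starts were placed on GENCODE M39 of GRCm39, written from 1. All 21 chromosomes fitted the sequence lengths of that build. Protein-coding starts of a gene within 500 bp were merged, and a summit within 1 kb went to the start whose merged span was nearest. Pile-ups were computed from the fold enrichment, with 1549 distinct values, each paired with a single q. In 294 values compared, −log10 p differed from the Poisson tail of that pile-up by at most 0.000494. Ratios of pile-ups carry exact 95% intervals from the binomial distribution. Percentages over all genes are descriptions, and no test was run.

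The 8 genes, the pathway and marker lists and the motifs were chosen with earlier results of these data known. The genes named are the 8 genes, the 3 pathway genes with the highest and the 3 with the lowest value at the gene start (4 with a tie), those without a summit there, Acly, and genes that overlap or start beside an interval of the 8. A gene of the pathway list that this rule names and the sequence of a start are not reported here. The scripts were tested on simulated data, in which 1000 of 1000 planted starts and 1000 of 1000 planted motifs were recovered. Tools were Python 3.11.15, pysam 0.24.0, samtools 1.23.1, scipy 1.17.1, pandas 2.3.3, numpy 2.4.6 and matplotlib 3.10.9.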

Additional observations from a re-analysis of the deposited data

How the results depend on the processing

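No paired analysis was possible because no column belongs to a library. For the same reason no library could be left out. The 85 intervals at the 8 genes became 50 when the q threshold was tightened to 1e-05 and 23 when a fold enrichment of 5 was required, and 329 summits lay inside the same regions. Between 75 and 124 intervals were found at a q under 0.01, with 10 kb either side, from gene start to gene end, or by the place of the summit. The median fold enrichment at the start, 20.3, was 14.7 within 500 bp and 34.8 over any coding start. The single values that moved within 500 bp were Fasn (7.73) and Scd2 (4.58). From the canonical start, Acaca had no summit and Scd1 had 11.2. The GC box was at 5 of the 16 starts in windows of 100 bp in place of 9. Its share over all open starts was not computed for those windows. An LXR element match appeared at 1 start from 250 bp upstream to 50 bp downstream in place of 0, against 2.76% of all open starts. The SREBP element rose from 1 to 4 with 1 mismatch allowed, against 17.9% of all open starts. Open coding starts numbered 19 of 26 when starts within 100 bp were merged and 13 of 19 within 1000 bp, and 15 of 22 by outermost transcript starts, settings that, like the canonical start for the strongest interval and the mismatch, were added after the data were seen. Of 33 alternative values for counts and medians, 25 stayed within 1.5 times the count or within counting error, as did 40 of 48 values for single genes. For a median, counting error was that of a single pile-up of the same size, which is not the error of a median. Some alternatives could not move. Summits rank alike by fold enrichment and by q, and all 7 genes with a summit at the gene start reached 5. These tallies are therefore no measure of stability. No setting varied the depth. Of the 85 intervals, 51 had a fold enrichment under 3, and the lowest rest on 26 reads (17 to 38.1).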
